A study of Glycine max with 46 samples.

Results

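Subtilases are serine proteases of the subtilisin type. Most plant members are made as precursors with an inhibitory propeptide, pass through the secretory pathway and act in the cell wall space, where they mature peptide hormones and cell wall enzymes such as pectin methylesterases. In Arabidopsis, ARA12 acts in the seed coat during mucilage release, SDD1 restricts stomatal number, AIR3 was found as an auxin-induced gene of roots forming laterals, ALE1 acts in the formation of the embryo surface, and SBT5.2, SBT4.13, SBT1.1 and SBT3.5 have been linked to the processing of peptide signals or cell wall enzymes. The soybean genes below carry these symbols only as the closest Arabidopsis match given in the deposited tables, so a symbol names a likeness and not a tested function.

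The soybean subtilases were taken as every gene whose Arabidopsis-based description contained subtilase or subtilisin, each represented by its transcript model with the longest cDNA. Of 56044 genes this chose 103 with a single transcript model and 23 with more, on 20 chromosomes as read from the gene names. A subtilase catalytic domain was annotated in 112 of them, the inhibitor I9 propeptide domain in 104 and a protease-associated domain in 84. The closest Arabidopsis symbol was AIR3 for 13 genes, ARA12 for 11, SBT5.2 for 9, SDD1 for 8 and SBT5.4 for 7, and 56 genes had none. Another 9 genes carried a subtilase domain but were described as site-1 protease, tripeptidyl peptidase II or xylem serine peptidase. They were kept apart in a list of 11 other subtilisin-type proteases.

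The study sequenced RNA of soybean lines with different alleles at the I locus, where inverted chalcone synthase genes set the seed coat colour. Williams W43 (i-i RT w1) has a yellow coat with a black hilum, the scar where the seed was attached, and supplied 5 coat libraries between 10 and 500 mg seed fresh weight as well as 8 libraries of dissected hilum and coat without hilum. W44 (i RT w1, i inversion, black coat) supplied 6 coat libraries, and W55 (a 138 kb i deletion, black coat) supplied 2 coats of 300 to 500 mg, 2 coats of 5 to 6 mg, 2 whole seeds at 5 days after flowering and a young root. The late W55 coats carry the genotype label i-i RT w1, which differs from the i R w1 of the other W55 seed libraries. Richland (I R t, yellow coat) and its i mutant T157 (i R t, imperfect black coat) each supplied 4 coats, 1 whole seed and 1 young leaf. Single 5 to 6 mg coats came from UC9 (Clark, i R T W1, 138 kb i deletion), UC501 (Harosoy, I r T W1, yellow coat) and UC508 (a Harosoy isoline with Def and net, defective coats), and 1 coat of 25 to 50 mg from the brown-coated Clark isoline RM38 (i r T W1). The remaining libraries were roots of 5 day W43 seedlings flooded for 12 or 24 h, a young root of W54 (the same line as W43) from 4 week plants, and flowers of a purple-flowered Williams W1 isoline. The i-i, i and I alleles were therefore compared in coats, while leaves came only from Richland and T157 and roots only from Williams lines.

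Values are RPKM, reads scaled by cDNA length and by the library's counted alignments. Levels are compared on that scale, which shifts between libraries where alignments fall differently over the models. A read matching several copies can also be counted in several rows, which limits comparison between similar genes. Library totals ranged from 18.1 M to 545.0 M alignments. In 3 libraries most alignments fell on models without a description: 88.6% and 80.6% in the 5 to 6 mg W55 coats and 56.2% in the 50 to 100 mg W44 coat, against at least 7.58% and at most 18.05% in the others. Described genes as a whole are low in those 3 libraries, so their values are also given as RPKM rescaled over described models where a result rests on them. The 2 leaf libraries summed to 21853 and 41572 RPKM of leaf markers (light-harvesting and small Rubisco subunit genes) against at most 34.0 in young roots, and no more than 2282 in any seed library. Most stages of a line have 1 library, so lines and stages serve as each other's replicates and p-values measure the spread between those libraries. In whole tissue, fewer cells of a type and less RNA per cell cannot be told apart.

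The family divided into a few very abundant coat genes and many low or tissue-restricted ones. Of all these subtilases, 96 reached a mean of at least 1 RPKM in some tissue class, 34 reached 10 and 5 reached 100. In the remaining 30 genes no tissue class averaged 1 RPKM, and 5 of those never had more than 3 reads in any library. By highest mean, 35 genes peaked in young roots, 19 in flowers, 17 in leaves, 11 in coats of 10 to 100 mg, 11 in dissected coat without hilum and 10 in the hilum. Only 4 peaked in coats of 300 to 500 mg, where 33 genes reached 1 RPKM against 59 in coats of 10 to 100 mg and 67 in young roots.

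**Figure D1:**
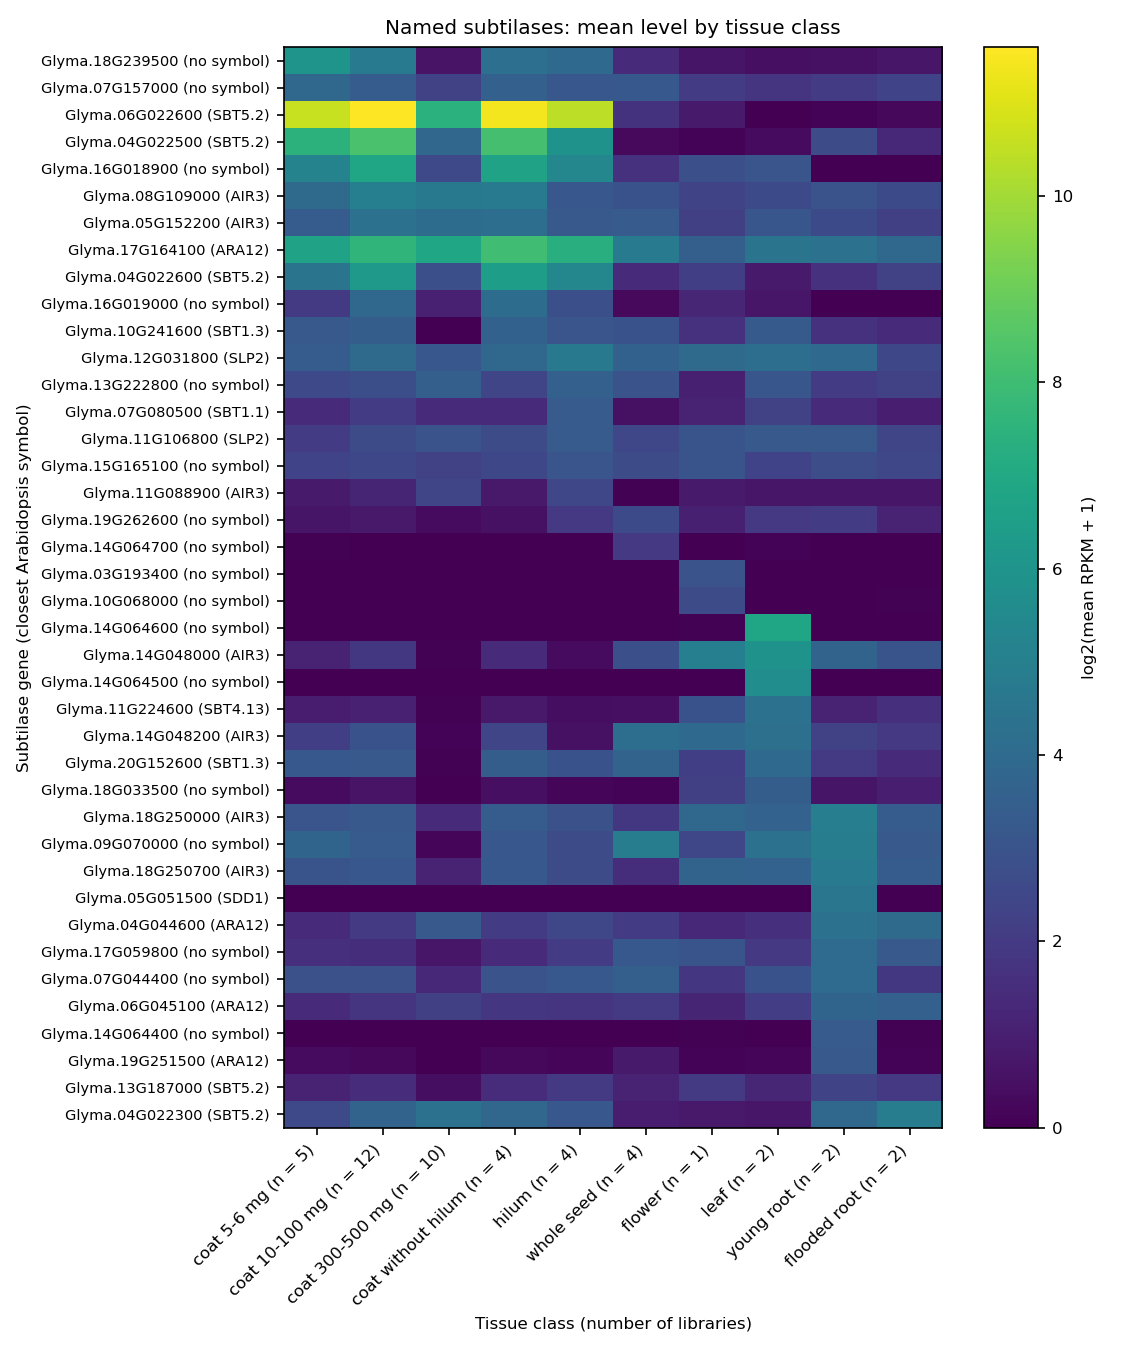
Mean level of 40 named subtilases, as log2(mean RPKM + 1) by colour, in 10 tissue classes with the number of libraries in brackets; genes are ordered by the class in which they are highest. Glyma.06G022600 is bright in every coat class and in the hilum, while Glyma.14G064500 and Glyma.14G064600 are bright in leaves alone.

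One gene made up most of the subtilase signal of the seed coat. Glyma.06G022600, closest to SBT5.2, lies in the chromosome 6 run of subtilases and accounted for 74.8% of the summed subtilase RPKM in coats of 10 to 100 mg, 70.8% in coat without hilum and 69.4% in the hilum. It stood at 2743, 3216 and 3515 RPKM in W43 coats of 10-50, 25-50 and 50-100 mg, at 2446 and 2597 RPKM in Richland and at 2004 and 2905 RPKM in T157 coats. In W44 it was at 4360, 3644 and 3836 RPKM in the 10-50, 25-50 and 75-100 mg coats and at 1934 RPKM in the 50-100 mg coat, which becomes 4411 RPKM rescaled over described models. It was the most abundant gene of all in 5 of these 11 coats and stayed within the first 5 in all of them except that W44 coat, where it ranked 52. At its highest it took 1.06% of all counted alignments.

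The same gene was nearly silent in flowers, roots and leaves and low in young whole seeds, which include their coats. Whole seeds at 5 days after flowering had 0.0785 and 0.0827 RPKM in W55, 2.76 RPKM in Richland and 6.07 RPKM in T157. Flowers had 0.784 RPKM, the 4 root libraries 0.0779 to 0.253 RPKM, and leaves 0.00184 and 0 RPKM, where a count of 0 allows up to 0.00599 RPKM. Every coat library of 10 to 100 mg thus lay far above every whole seed, flower, root and leaf library, with no overlap.

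Other abundant coat subtilases were far lower. Glyma.04G022500, also closest to SBT5.2, averaged 311 RPKM in coats of 10 to 100 mg (range 144 to 580, n = 12). Glyma.17G164100, closest to ARA12, averaged 195 RPKM there. It was also found in whole seeds, flowers, leaves and roots, from 10.3 RPKM in flowers to 32.6 RPKM in the Richland whole seed. Glyma.16G018900, which has no symbol, averaged 114 RPKM (lowest 65.8), with 9.57 and 5.28 RPKM in leaves, 6.02 RPKM in flowers and at most 0.0178 RPKM in any root.

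Many subtilases lie beside one another. Counting gene names in order and allowing 1 other gene between them, 45 subtilases formed 17 runs of 2 to 5, and in 5 of these runs every gene had its highest mean in the same tissue class. Coats of 10 to 100 mg and coat without hilum count as different classes here, which alone splits the chromosome 6 run and that of Glyma.16G018900. Some runs hold genes near 0, as on chromosome 1, where no class mean exceeded 0.0054 RPKM. On chromosome 4, 5 SBT5.2-like neighbours differed widely: Glyma.04G022500 and Glyma.04G022600 were coat genes, Glyma.04G022300 was highest in flooded roots (18.6 and 37.2 RPKM) and averaged 19.7 RPKM in coats of 300 to 500 mg, and Glyma.04G022400 and Glyma.04G022200 stayed at or below 1.79 and 0.142 RPKM in every library. On chromosome 16, Glyma.16G018900 and Glyma.16G019000 were both coat genes, while Glyma.16G019100 and Glyma.16G019300 averaged at most 0.436 and 0.0209 RPKM in any class.

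The chromosome 14 run split between leaf, root and seed. Glyma.14G064600 stood at 112 and 121 RPKM in the Richland and T157 leaves and Glyma.14G064500 at 52.8 and 49.7 RPKM, and no library of another tissue exceeded 0.0619 and 0.0249 RPKM. Their neighbour Glyma.14G064400 was at 6.27 and 11.8 RPKM in the W54 and W55 young roots and at most 0.0465 RPKM elsewhere, flooded roots included. Glyma.14G064700 was at 5.78 and 4.98 RPKM in the W55 whole seeds, 0.208 and 0.106 RPKM in the Richland and T157 whole seeds, and at most 0.150 RPKM in any other library.

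**Figure D2:**
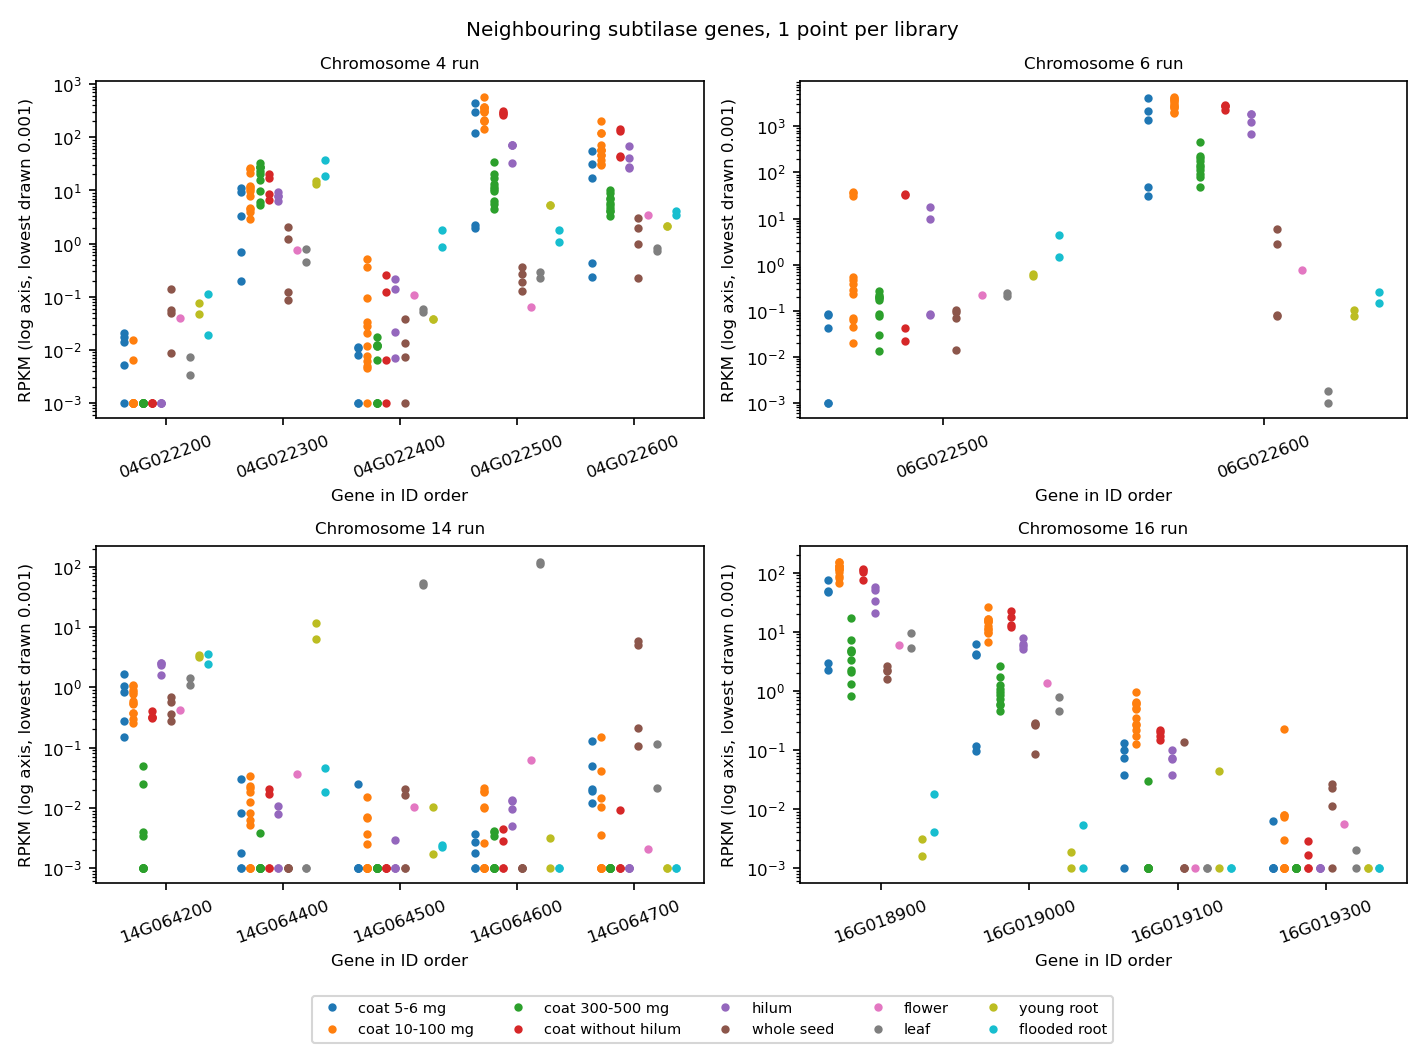
RPKM on a log axis of neighbouring subtilases in 4 runs, 1 point per library and 1 colour per tissue class, with values under 0.001 drawn at 0.001. Adjacent genes differ by several orders in the same tissue, as for Glyma.06G022500 and Glyma.06G022600 in late coats or Glyma.14G064400 and Glyma.14G064500 in leaves.

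A caution applies to some genes of the SBT5.2-like runs, and values by library number are given here for these runs alone. Glyma.06G022500 was at 9.56 to 37.0 RPKM in the 7 coat and hilum libraries of 10 to 100 mg whose title number is below 100, and at 0.0197 to 0.547 RPKM in the 13 whose number is above it. Glyma.04G022400, low throughout, was at 0.0959 to 0.503 RPKM in the first set and at most 0.0334 RPKM in the second. Glyma.04G022600 was at 41.2 to 203 RPKM (median 123) in the first set and 26.9 to 70.5 RPKM (median 44.9) in the second, with overlap. Glyma.06G022600 and Glyma.04G022500 overlapped too, with medians of 2597 and 2743 RPKM and of 284 and 287 RPKM. The labels do not say what the numbers stand for, a read matching several copies can be counted in several rows, and the cause was not tested.

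The question put to the coats by weight was how expression changes as the seed fills. Coats of 300 to 500 mg (8 libraries) were compared with coats of 10 to 100 mg (11 libraries) over W43, W44, Richland and T157, with the line in the model. The abundant coat subtilases fell steeply. Glyma.06G022600 had a median of 2905 RPKM early (lowest 1934, highest 4360) and 121 RPKM late (lowest 47.4, highest 233), a difference of −4.59 ± 0.27 on the log2(RPKM + 1) scale (SE; limma, Benjamini-Hochberg adjusted p = 4.06e-11). The 2 groups did not overlap, and late values were lower in each of the 4 lines.

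Of 50 subtilases with enough signal to test, 32 fell, 8 rose and 10 did not pass, while 57.7% of all 29263 genes tested passed in either direction (26.6% higher, 31.1% lower). The median subtilase difference was −0.89, against −0.03 for all genes. The other 76 members did not reach a mean of 1 RPKM in these coats. By symbol, 4 of 6 SBT5.2-like genes fell, both SBT1.3-like genes fell, both SBT3.5-like genes fell, and 4 of 7 AIR3-like genes fell with 1 rise.

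Other abundant genes fell as well. Glyma.04G022500 went from a median of 308 RPKM (144 to 379) to 10.1 RPKM (4.45 to 20.6), a log2 difference of −4.77 ± 0.25 (limma adjusted p = 8.12e-12). Glyma.16G018900 went from 114 RPKM (lowest 65.8) to 3.43 RPKM (0.800 to 7.11), −4.74 ± 0.23 (limma adjusted p = 2.72e-12). Glyma.04G022600, one of the genes that moved with library number, went from 57.7 RPKM (29.5 to 123) to 4.93 RPKM (3.24 to 8.94), −3.17 ± 0.26 (limma adjusted p = 4.98e-09). None of these ranges overlapped. In all 3 genes, as in Glyma.06G022600, the lowest early value came from the 50-100 mg W44 coat, in which 56.2% of alignments were undescribed. Rescaled over described models that coat is at 329 RPKM for Glyma.04G022500, 150.1 RPKM for Glyma.16G018900 and 67.4 RPKM for Glyma.04G022600.

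Glyma.18G239500, without a symbol, varied widely among the early coats. It stood at 96.0, 48.2 and 34.5 RPKM in W43 coats of 10-50, 25-50 and 50-100 mg, at 39.8 and 3.73 RPKM in Richland, at 9.92 and 1.64 RPKM in T157, and at 8.59, 21.0, 27.4 and 8.92 RPKM in the 10-50, 25-50, 50-100 and 75-100 mg coats of W44. The W44 value of 27.4 RPKM comes from the library with 56.2% undescribed alignments and is higher when rescaled over described models. All late coats of these lines lay between 0.234 and 0.908 RPKM, below every early one. The fitted difference was −3.45 ± 0.43 (limma adjusted p = 1.01e-06).

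The SBT1.3-like pair was expressed early and all but lost late. Glyma.20G152600 ranged from 1.52 to 16.6 RPKM early (median 7.24) and from 0.004 to 0.0851 RPKM late (median 0.0120), −3.04 ± 0.25 (limma adjusted p = 4.39e-09). Glyma.10G241600 ranged from 1.41 to 22.3 RPKM early (median 8.90) and from 0.0031 to 0.0779 RPKM late (median 0.0138), −3.17 ± 0.26 (limma adjusted p = 3.74e-09). The pair followed each other closely, with both highest in the 50-100 mg T157 coat and both lowest among early coats in the 75-100 mg W44 coat. The late values rest on 1 to 27 reads for Glyma.20G152600 and 1 to 29 reads for Glyma.10G241600, so how far below the early coats they lie is poorly fixed, and no fold on RPKM alone is given.

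**Figure D3:**
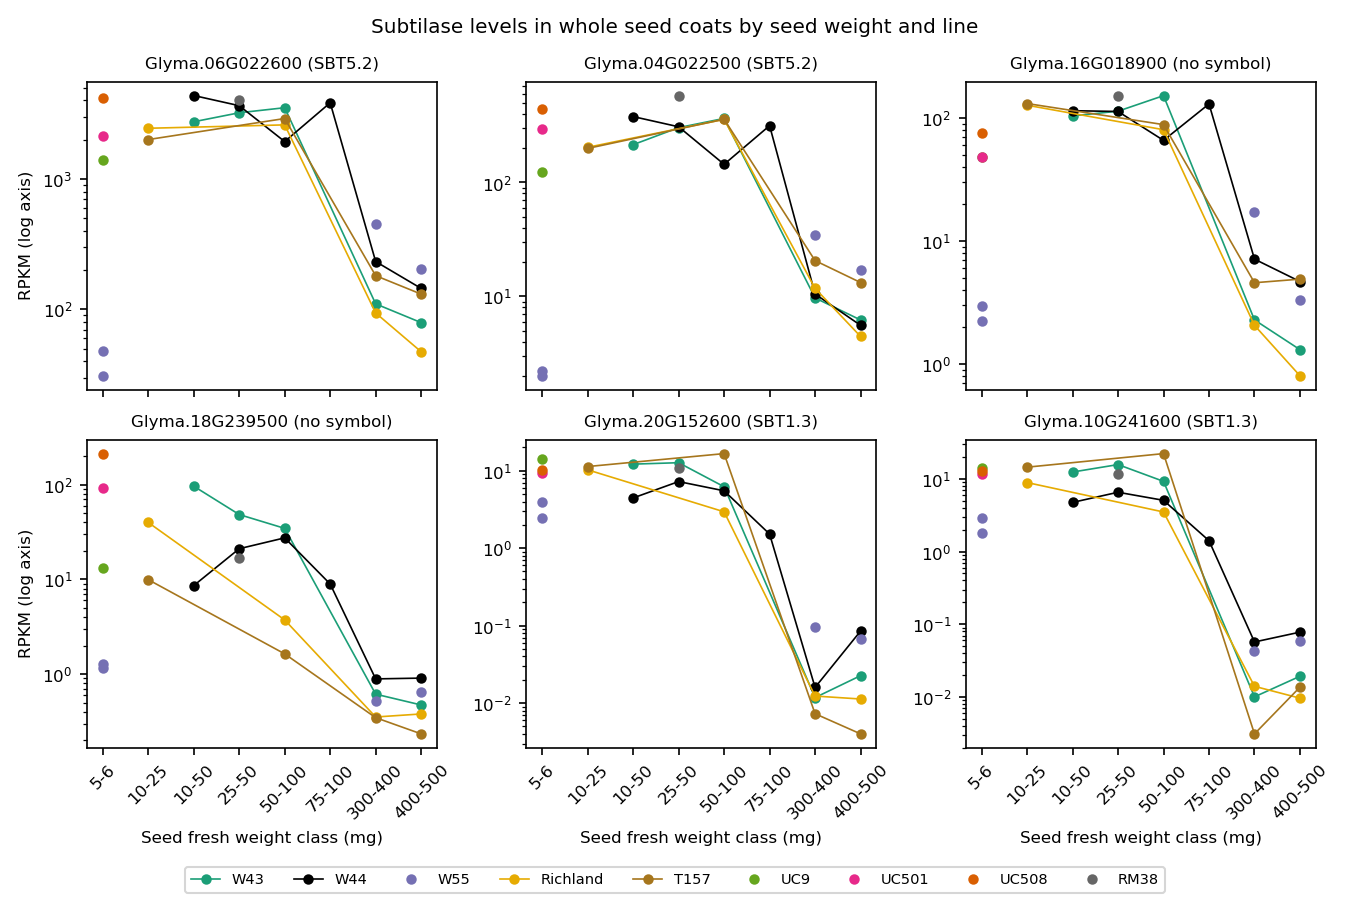
RPKM on a log axis of 6 subtilases in whole seed coats against seed fresh weight class in mg, with 1 point per library and 1 colour per line; lines join libraries of the same line, and both 5-6 mg W55 points come from libraries in which at least 80.6% of alignments fell on undescribed models. The 50-100 mg W44 point comes from a library with 56.2% undescribed alignments. All 6 genes drop between 100 and 300 mg in W43, W44, Richland and T157.

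Not all coat subtilases fell by much, and a few rose. Glyma.17G164100 went from a median of 203 RPKM (74.8 to 277) to 96.7 RPKM (59.7 to 132), −0.89 ± 0.22 (limma adjusted p = 0.00202), with overlapping ranges. On the deposited scale the overlap comes from the same 50-100 mg W44 coat. Without it the lowest early value of Glyma.17G164100 is 132.7 RPKM, just above the highest late one of 132.4 RPKM. Rescaled over described models that coat is at 170.6 RPKM. With every library rescaled in that way, however, the highest late value lies above the lowest early one, so the ranges still overlap. In late coats Glyma.17G164100 thereby came close to Glyma.06G022600. Glyma.11G088900, closest to AIR3, went from 1.17 RPKM (0.501 to 2.05) to 4.60 RPKM (1.98 to 9.85), 1.32 ± 0.17 (limma adjusted p = 2.22e-06), with overlap at the lowest late value. Glyma.04G044600, closest to ARA12, went from 2.41 RPKM (0.784 to 7.11) to 6.43 RPKM (2.68 to 16.7), 1.05 ± 0.21 (limma adjusted p = 3.21e-04), with overlap. The lowest early values of Glyma.11G088900 and Glyma.04G044600 also come from that W44 coat, and without it are 0.917 and 1.64 RPKM. Glyma.13G222800 rose by 0.71 ± 0.18 and the SLP2-like Glyma.11G106800 by 0.34 ± 0.14, but the last call was lost in 12 of its 26 alternative fits.

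Leaf marker genes moved with the same contrast: 15 of 16 tested fell and 1 rose, and their sum ranged from 436 to 1480 RPKM in the 12 coats of 10 to 100 mg and from 88.3 to 293 RPKM in the 10 coats of 300 to 500 mg. Embryo markers did not separate in sum (2113 to 7028 against 2561 to 4565 RPKM), with 60 of 150 higher and 57 lower. The embryo list is not particular to embryos, as it summed to 13046 to 18901 RPKM in flooded roots and 2276 to 3050 RPKM in whole seeds. The part of these marker lists in the subtilase differences was not tested.

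The size of the late fall was compared between Richland with T157 and W43 with W44. Only Glyma.07G080500, closest to SBT1.1, differed (−1.77 ± 0.36, limma adjusted p = 0.0375), where 0.301% of all genes did (0.13% higher, 0.171% lower). It went from 4.80 and 3.52 RPKM to 0.216 and 0.182 RPKM in Richland and from 2.48 and 5.92 RPKM to 0.326 and 0.115 RPKM in T157. In W43 it was at 1.83 to 3.24 RPKM early and 0.772 to 1.39 RPKM late, and in W44 at 1.03 to 3.85 RPKM early and 2.65 to 2.79 RPKM late. The lowest W44 value, 1.03 RPKM, comes from the 50-100 mg coat with 56.2% undescribed alignments. Early and late values do not overlap in Richland, T157 or W43, whereas those of W44 do. The call passed in 10 of 24 alternative fits, with adjusted p from 0.00897 to 0.123.

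The dissected W43 coats asked which transcripts belong to the black hilum and which to the yellow coat around it. Hilum was compared with coat without hilum over 4 libraries each, 2 at 25-50 mg and 2 at 50-100 mg, with the stage in the model. The labels describe 2 biological repeats per stage. Of 56 subtilases tested, 20 were higher in the hilum, 15 lower and 21 did not pass, while 40% of all 29296 genes passed in either direction (13.4% higher, 26.6% lower). The median subtilase difference was −0.21, against −0.11 for all genes. Scaling by median ratios changed the split over all genes from 33.5% to 47.6% of calls being higher, and left 20 subtilases higher and 13 lower.

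By symbol, the genes higher in the hilum were both SBT1.1-like and both SLP2-like genes tested, the 1 ALE1-like gene, 2 of 7 AIR3-like, 2 of 7 SBT5.2-like and 11 of 27 without a symbol. The SBT1.1-like Glyma.07G080500 had the largest difference of these on the log2(RPKM + 1) scale. It was at 7.70, 9.04, 8.83 and 11.1 RPKM in the 4 hilum libraries and between 1.46 and 1.81 RPKM in the 4 coat libraries, 1.97 ± 0.10 (limma adjusted p = 1.87e-05). The AIR3-like Glyma.11G088900 was at 3.61 to 6.52 RPKM against 0.459 to 1.33 RPKM, 1.64 ± 0.18 (limma adjusted p = 5.06e-04). Glyma.19G262600, without a symbol, was at 2.42 to 3.19 RPKM against 0.393 to 0.564 RPKM, 1.39 ± 0.10 (limma adjusted p = 7.79e-05). Glyma.03G019000, the other SBT1.1-like gene tested, was at 3.29 to 4.53 RPKM against 0.948 to 1.298 RPKM, 1.22 ± 0.10 (limma adjusted p = 1.39e-04). In these 4 genes hilum and coat did not overlap.

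Smaller differences were found in other genes. Glyma.13G222800, without a symbol, was at 8.58 to 13.0 RPKM against 4.03 to 4.67 RPKM, 1.12 ± 0.11 (limma adjusted p = 3.71e-04). The SLP2-like Glyma.12G031800 was at 20.1 to 29.2 RPKM against 11.6 to 16.4 RPKM, 0.77 ± 0.16, and Glyma.11G106800 was at 8.07 to 10.2 RPKM against 5.27 to 5.56 RPKM, 0.63 ± 0.08. Glyma.15G165100, described as a subtilase with a protease-associated domain, was at 6.73 to 7.74 RPKM against 4.26 to 5.12 RPKM, 0.53 ± 0.08. All 4 ranges stood apart, and all 4 passed (limma adjusted p = 0.00786 or lower). The SBT5.2-like Glyma.15G224500 was at 1.89 to 3.25 RPKM against 0.774 to 1.27 RPKM, 0.76 ± 0.13 (limma adjusted p = 0.00395).

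Genes higher in the yellow coat included 1 of 7 SBT5.2-like genes and 5 of 7 AIR3-like genes. The SBT5.2-like Glyma.04G022500 was at 70.6, 71.2, 33.1 and 70.4 RPKM in the hilum and at 284, 309, 264 and 287 RPKM in the coat around it, −2.27 ± 0.23 (limma adjusted p = 3.77e-04). Glyma.16G018900 was at 20.9 to 57.9 RPKM against 76.3 to 117 RPKM, −1.38 ± 0.31 (limma adjusted p = 0.0112), and its neighbour Glyma.16G019000 at 5.19 to 7.70 RPKM against 12.2 to 22.3 RPKM, −1.23 ± 0.20 (limma adjusted p = 0.00279). None of these overlapped. Among the AIR3-like genes, Glyma.05G152200 differed by −0.98 ± 0.13 (limma adjusted p = 0.00124).

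The most abundant gene did not pass this comparison. Glyma.06G022600 was at 1230, 1831, 676 and 1882 RPKM in the hilum and 2295, 2933, 2742 and 2711 RPKM in the coat without hilum, −1.03 ± 0.47 (limma adjusted p = 0.118). Every hilum library lay below every coat library, but the hilum libraries differed widely among themselves. With the library series (title numbers) as a block it did not pass either (limma adjusted p = 0.0898). That block left 20 subtilases higher and raised those lower from 15 to 21, adding Glyma.04G022600 (−1.01, limma adjusted p = 0.142 without and 0.00459 with the block), Glyma.07G050200, Glyma.07G157000, Glyma.09G070000, Glyma.13G110800 and Glyma.17G048700. The ARA12-like Glyma.17G164100 averaged 153.4 RPKM against 260.3 RPKM, −0.78 ± 0.26 (limma adjusted p = 0.0463), with overlap.

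**Figure D4:**
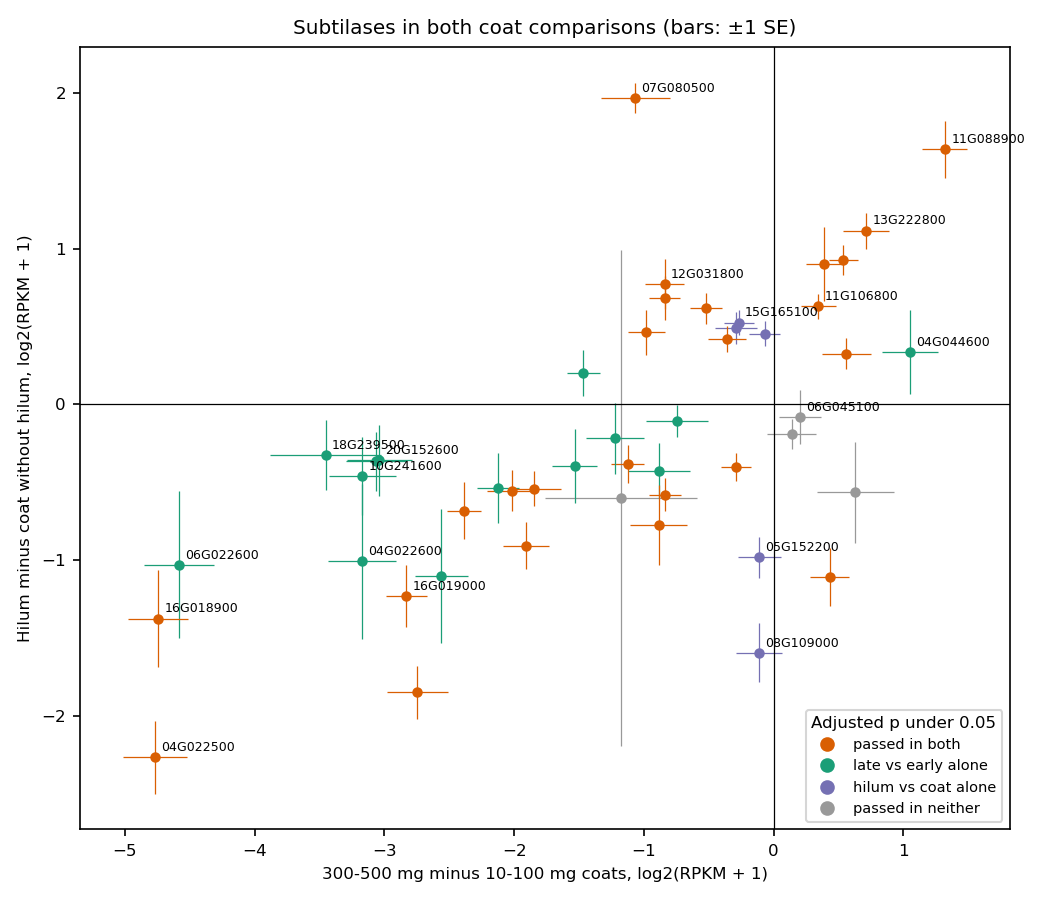
Each point is 1 of the 48 subtilases tested in both comparisons: the x axis gives the difference of late from early coats and the y axis that of hilum from coat without hilum, both on the log2(RPKM + 1) scale with bars of 1 SE, coloured by which comparison passed. Glyma.04G022500 and Glyma.16G018900 are low in both, and Glyma.07G080500 is high in the hilum and low in late coats.

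Both comparisons rest on different libraries, and 48 subtilases were tested in both. Of these, 12 were lower late and lower in the hilum, 6 were lower late and higher in the hilum, 6 were higher in both, and 1 was higher late and lower in the hilum. These are 25.0%, 12.5%, 12.5% and 2.08% of the 48, against 13.4%, 3.58%, 4.41% and 3.91% of the 27741 genes of any kind tested in both, and the shares were not compared by a test. That last gene was the SDD1-like Glyma.19G168700, with 2.89 RPKM early and 4.63 RPKM late on average, and 0.817 RPKM in the hilum against 2.98 RPKM around it. It was named after its values were seen.

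Markers of other tissues moved with the hilum contrast. Of 21 xylem markers tested 12 were higher in the hilum and 3 lower, and their sum overlapped, at 560 to 1066 RPKM in the hilum against 229 to 704 RPKM around it. Of 135 genes of the embryo list, which is not particular to embryos, 42 were higher and 33 lower. Its sum was lower in the hilum without overlap, at 2598 to 2768 RPKM against 3823 to 6252 RPKM. Of 30 flower markers 12 were higher and 8 lower, and their sum was higher in the hilum without overlap, at 783 to 931 RPKM against 607 to 646 RPKM. None of 7 root markers was higher and 4 were lower (38.5 to 44.2 against 51.1 to 54.8 RPKM in sum), and none of 15 leaf markers was higher and 1 was lower (1091 to 1300 against 1097 to 2282 RPKM). Their part in the subtilase differences between hilum and coat was not tested.

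Some pectin methylesterases are processed by subtilases in Arabidopsis. The list used here holds genes whose description names pectin methylesterase or pectinesterase, which can include inhibitors of these enzymes. Of its genes, 14 of 35 tested were higher in the hilum and 6 lower, with a median of 0.31. In late coats 25 of 39 were lower and 9 higher, with a median of −0.93. Peptide hormone precursors were higher in the hilum in 12 of 33 and lower in 6, and in late coats lower in 14 of 34 and higher in 1. Other secreted proteases were lower in late coats in 82 of 134 tested and higher in 14, with a median of −0.81. These lists hold no subtilase. Over all genes tested, 13.4% were higher in the hilum and 26.6% lower, while 26.6% were higher in late coats and 31.1% lower.

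Between 25-50 and 50-100 mg, 5 subtilases fell in the dissected parts and none rose, where 1.07% of all genes passed (0.386% higher, 0.683% lower). Glyma.20G152600 was at 18.5, 13.8, 8.33 and 12.8 RPKM in the lighter parts and at 1.79, 4.16, 2.28 and 2.65 RPKM in the heavier ones, −1.94 ± 0.23 (limma adjusted p = 0.0366). Glyma.10G241600 was at 8.65 to 18.2 RPKM against 2.35 to 6.13 RPKM, −1.80 ± 0.25 (limma adjusted p = 0.0419). Glyma.18G239500 was at 20.2 to 27.5 RPKM against 4.44 to 11.0 RPKM, −1.49 ± 0.22 (limma adjusted p = 0.0448).

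Glyma.09G070000 (−1.14 ± 0.19) and Glyma.07G044400 (−0.95 ± 0.15) had limma adjusted p = 0.0493 and 0.0472. None of the 5 overlapped between weights, in hilum and coat alike. These calls lie close to the threshold: leaving out any 1 library left 0 to 2 of them, while a model with the library series as a block gave 11 lower. A change of the hilum difference with stage passed in no subtilase (limma, 0 of 56, with 4 at unadjusted p under 0.05), against 0.0137% of all genes (0.0102% higher, 0.00341% lower). The smallest adjusted p was 0.652, for Glyma.13G187000.

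Lines that differ at the I locus were compared next, to see whether subtilases differ between yellow and pigmented coats. The late W55 coats carry the same genotype label as W43 (i-i RT w1), so the labels leave unsettled whether that pair differs at the locus. No subtilase passed between T157 and Richland (50 tested, limma, smallest adjusted p = 0.245, 2 at unadjusted p under 0.05), between W44 and W43 (49 tested, smallest 0.767, 5 unadjusted) or between late W55 and late W43 coats (49 tested, smallest 0.156, 8 unadjusted). Over all genes 0%, 0% and 0.304% passed in these comparisons, the last as 0.0761% higher and 0.228% lower. With 1 library per line and stage these comparisons can miss differences of moderate size. The ARA12-like Glyma.17G164100 was 0.41 ± 0.11 higher in T157 than in Richland and Glyma.16G019000 0.26 ± 0.09 higher, neither passing. The AIR3-like Glyma.11G088900 was at 2.39 and 3.44 RPKM in late W55 coats against 5.74 and 9.85 RPKM in W43, −1.08 ± 0.25 (limma adjusted p = 0.156). Glyma.06G045100 had the other small p in both Williams comparisons, at −0.55 ± 0.17 for W44 and 0.83 ± 0.25 for W55 against W43, and passed in neither.

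The smallest unadjusted p between W44 and W43 belonged to Glyma.08G109000, an AIR3-like gene. Its gene name lies just before those of the chalcone synthase genes of the I locus on chromosome 8. It was at 27.1, 22.3, 24.4, 26.0 and 21.2 RPKM in W43 coats of 10-50, 25-50, 50-100, 300-400 and 400-500 mg, and at 49.3, 63.5, 26.3, 66.9 and 48.1 RPKM in the W44 coats of the same weights, with 55.1 RPKM at 75-100 mg. W44 was higher in 5 of 5 weights, by 0.98 ± 0.25 on the log2(RPKM + 1) scale (limma adjusted p = 0.767, range over alternatives 0.0812 to 1). An exact sign-flip test of the 5 pairs gave a two-sided p = 0.0625, the smallest it can give.

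The 1 low W44 value came from the library with 56.2% undescribed alignments. Rescaled over described models that value is 60.1 RPKM, and the mean difference becomes 1.16 ± 0.21 (SD, n = 5 pairs), with each pair between 0.84 and 1.40. The pattern was not particular to this gene. On that scale the AIR3-like Glyma.05G152200 on chromosome 5 was also higher in 5 of 5 pairs (0.95 ± 0.15, SD). So were Glyma.06G022600 (0.57 ± 0.41) and Glyma.04G022600 (0.36 ± 0.21), while Glyma.06G045100 was higher in 0 of 5 (−0.47 ± 0.46). In the other lines, Richland coats were at 24.2, 15.8, 16.2 and 13.0 RPKM, T157 coats at 24.6, 13.5, 12.7 and 13.9 RPKM, RM38 at 24.4 RPKM and late W55 coats at 17.6 and 13.0 RPKM. UC9, which like W55 carries the 138 kb deletion, was at 22.7 RPKM. The difference of late from early coats did not pass (−0.12 ± 0.18, limma adjusted p = 0.597). In dissected W43 coats the gene belonged to the yellow part, with 5.42, 7.56, 7.31 and 11.2 RPKM in the hilum against 26.4, 26.9, 20.5 and 27.2 RPKM around it, −1.60 ± 0.19 (limma adjusted p = 7.07e-04).

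**Figure D5:**
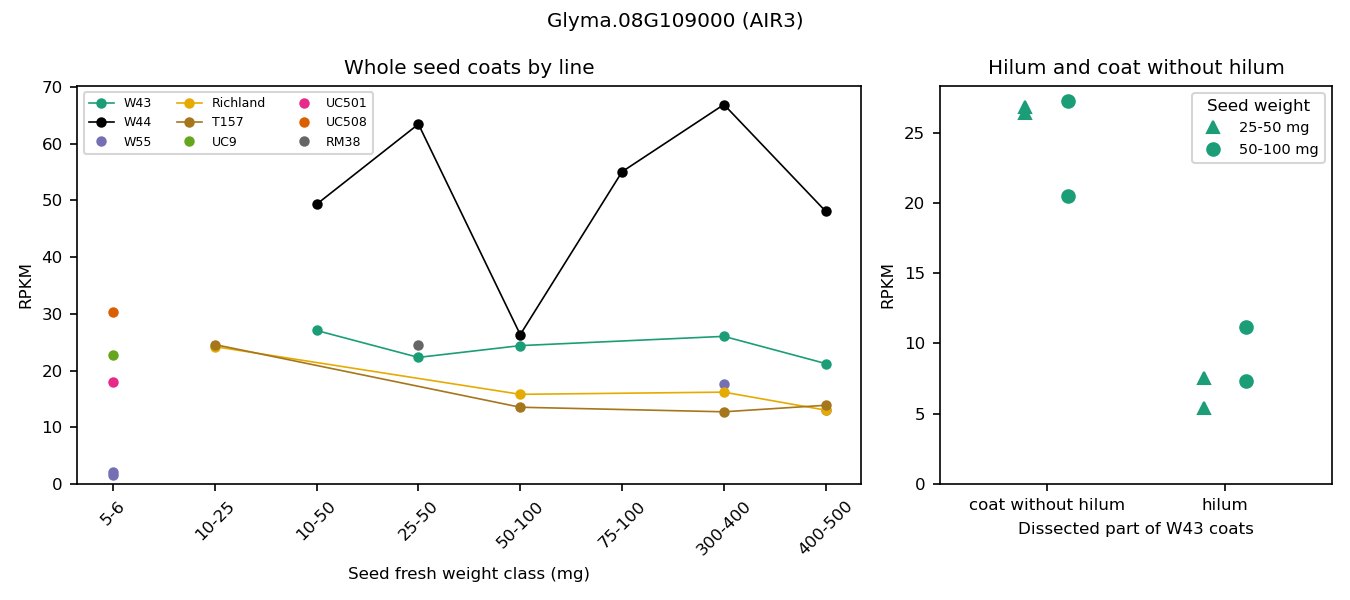
RPKM of Glyma.08G109000 in whole coats by seed fresh weight and line (left) and in dissected W43 parts (right), 1 point per library. W44 lies at 26.3 to 66.9 RPKM, above W43 at each shared weight, and hilum libraries lie at 5.42 to 11.2 RPKM, below all coat parts without hilum.

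The youngest coats, at 5 to 6 mg, came from 4 lines and were described without a test between lines, since 3 have 1 library. Glyma.06G022600 was already at 1404 RPKM in UC9, 2121 RPKM in UC501 and 4185 RPKM in UC508, with ranks of 4, 2 and 1 among all genes. It was at 48.3 and 31.0 RPKM in the 2 W55 coats, or 424 and 160 RPKM rescaled over described models. Glyma.18G239500 was at 13.0, 92.3 and 212 RPKM in UC9, UC501 and UC508, the last being its highest value in any library, and at 11.1 and 5.93 RPKM in W55 after that rescaling. Glyma.07G157000 was also highest in UC508 (41.8 RPKM), against 21.4 RPKM in UC501 and 7.10 RPKM in UC9. The SBT1.3-like Glyma.20G152600 and Glyma.10G241600 were at 9.32 to 14.2 RPKM and 11.6 to 13.9 RPKM over the same 3 lines.

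W55 coats of 5 to 6 mg were compared with W55 whole seeds at 5 days after flowering. On the deposited scale 38 of 44 subtilases were lower in the coat and 2 higher, but 97.2% of all genes passed (1.69% higher, 95.5% lower), with a median of −1.80. Rescaled over described models, 11 of 36 subtilases were higher and 12 lower, with a median of −0.10 against −0.28 for all genes. Glyma.06G022600 was higher in the coat on both scales, at 424 and 160 against 0.0958 and 0.0922 RPKM after rescaling. Glyma.14G064700 and Glyma.19G262600 were lower on both, at 0.168 and 0.250 against 7.06 and 5.55, and at 1.22 and 1.78 against 7.96 and 8.99. Whole seeds were instead led by Glyma.09G070000, at 24.3 to 32.6 RPKM in the 4 libraries, and the ARA12-like Glyma.17G164100, at 23.0 to 32.6 RPKM, followed by the AIR3-like Glyma.14G048200 at 12.8 to 21.7 RPKM.

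Young leaves and young roots had subtilases of their own. Richland and T157 leaves were compared with W54 and W55 roots, so organ and cultivar cannot be told apart. Of 72 subtilases tested, 14 were higher in leaves and 33 in roots, while 58% of all 31734 genes passed (19.4% and 38.6%), with medians of −0.46 for subtilases and −0.32 for all genes. Median-ratio scaling moved the median of all genes to −0.09 and gave 19 subtilases higher in leaves and 30 in roots. Without the W54 or the W55 root, 25 and 20 subtilases passed.

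Beside the leaf genes of the chromosome 14 run, leaves had high AIR3-like and SBT4.13-like genes. Glyma.14G064600 differed by 6.87 ± 0.19 and Glyma.14G064500 by 5.70 ± 0.18 (limma adjusted p = 1.06e-04 for both). The AIR3-like Glyma.14G048000 was at 48.7 and 73.2 RPKM in leaves and 31.0 RPKM in flowers, against 14.5 and 9.18 RPKM in young roots. Glyma.11G224600, closest to SBT4.13, was at 29.7 and 9.86 RPKM against 1.21 and 1.20 RPKM, and Glyma.18G033500 at 14.2 and 5.14 RPKM against 0.615 and 0.492 RPKM. Both were higher in the Richland leaf, and both calls were lost when 1 root library was left out. The SBT1.3-like pair was higher in leaves too, with Glyma.20G152600 at 9.34 and 19.5 RPKM against 3.41 and 2.55 RPKM. Its call and that of Glyma.10G241600 were lost when either root library was left out (limma adjusted p = 0.0953 and 0.124, and 0.173 and 0.207), and that of Glyma.10G241600 also with no filter on low values (0.0532).

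The highest subtilases of young roots were the AIR3-like Glyma.18G250000 and Glyma.18G250700 and Glyma.09G070000, without a symbol, at 27.3 and 29.6 RPKM in the W54 and W55 roots. Genes higher in roots than in leaves included SDD1-like, SBT5.2-like and ARA12-like ones. The SDD1-like Glyma.05G051500 was at 12.6 and 31.8 RPKM in young roots and 0.00334 and 0.00363 RPKM in leaves, −4.39 ± 0.42 (limma adjusted p = 5.53e-04). Its neighbour Glyma.05G051400 and the SDD1-like neighbours Glyma.17G133400 and Glyma.17G133500 were at 2.16 to 5.52 RPKM in young roots and at most 0.276 RPKM in leaves or flowers. All 5 SBT5.2-like genes tested were higher in roots, among them Glyma.04G022300 at 15.2 and 13.0 RPKM against 0.455 and 0.788 RPKM, −3.22 ± 0.20 (limma adjusted p = 1.59e-04). Of 7 ARA12-like genes 5 were higher in roots and none in leaves, including Glyma.04G044600 at 21.2 and 16.6 RPKM and Glyma.19G251500 at 4.80 and 12.1 RPKM.

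The AIR3-like Glyma.18G250000 and Glyma.18G250700 were at 35.2 and 32.1 RPKM in the W54 root and at 24.5 and 22.7 RPKM in the W55 root, and they ran close to each other in early coats and leaves too. The model of the first is 816 bases long, against 2290 for the second. Whether these genes share reads was not tested. In flowers, Glyma.03G193400 at 6.76 RPKM and Glyma.10G068000 at 5.202 RPKM stood alone, with means of at most 0.0235 and 0.0375 RPKM in any other tissue class. Their single library allows no test.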

How the data were processed

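RNA sequencing was taken from 2 deposited tables, 38 libraries of lines and organs and 8 libraries of dissected hilum and coat. The values are RPKM computed by the authors over 88647 transcript models, and Bowtie is named in the submitters' processing notes. The sources used here do not give its version, its settings or a genome build. Library kits were TruSeq or stranded TruSeq per the labels' protocols, so antisense and overlapping genes cannot be told apart. RPKM times cDNA length and library total gave whole reads within 0.01 for 100% of values, which returned the total of counted alignments per library. A count of 0 allows 3 reads, a limit that covers counting error only. 4 value columns that no label describes were not used.

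Each gene was represented by its longest-cDNA model, and subtilases were found by description (126 genes). The members, lists and comparisons were chosen with earlier results of these data known. Genes with a mean of at least 1 RPKM in the fitted libraries were tested with limma 3.58.1 (R 4.3.3) on log2(RPKM + 1), with a trend and Benjamini-Hochberg adjustment over all genes, at 0.05; the test was tried on simulated data. Fold changes on this scale understate those of low genes. Whole-coat comparisons of lines had the weight class, and late against early coats the line, as a covariate. Named genes were Glyma.20G152600, Glyma.10G241600 and Glyma.08G109000, the 5 most raised and 5 most lowered passing members with at least 5 RPKM in the higher group, the 2 smallest p where none passed, the 3 highest members per tissue, and up to 3 members at least 5 times above any other tissue. Further genes given for a symbol group, a run or a small count were chosen after their values were seen.

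In the dissected parts, libraries with the same series of library numbers deviated together (correlation 0.44 to 0.66 over 12 pairs), so the series was also fitted as a block. Replicate pairs differed beyond sampling noise in every group that had them. Alternatives were a pseudocount of 0.1, no filter, median-ratio scaling, scaling over described models (chosen after seeing the data), the most abundant model, and each library left out. Python 3.11.15, pandas 2.3.3 and matplotlib 3.10.9 were used for tables and plots.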

Additional observations from a re-analysis of the deposited data

Results flagged for a closer look

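In the comparison of hilum with coat without hilum, the 50-100 mg hilum of the first library series stood apart from the other 3 for Glyma.04G022500 (33.1 RPKM against 70.4 to 71.2). The 50-100 mg coat without hilum of that series stood apart for Glyma.08G109000 (20.5 RPKM against 26.4 to 27.2). These are 2 of 28 groups of named genes examined, and chance flags about 1 in 20. Both genes passed in 14 of 14 alternative fits of that comparison. The fall of Glyma.07G080500 in late coats differed between Richland with T157 and W43 with W44 by −1.77 on the log2(RPKM + 1) scale.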

How the results depend on the processing

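The number of subtilases passing stayed within 1.5 times its main value in most fits, and the exceptions were these. Without a filter on low values, 78 subtilases passed in late against early coats, 62 in W55 coat against whole seed, 3 in the difference between Richland and Williams lines and 0 in 50-100 against 25-50 mg parts, as more low genes entered. For 50-100 against 25-50 mg parts the library series block gave 11, and leaving out 1 library gave 0 to 2. The difference between Richland and Williams lines gave 3 under median-ratio scaling, 2 over described models, and 0 to 2 with 1 library left out. Leaf against root gave 20 to 56 with 1 library left out, late against early coats 37 to 43, and hilum against coat 30 to 37. The library series block gave 41 in hilum against coat in place of 35, all 6 additions being lower in the hilum, and no call was lost.

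W55 coat against whole seed gave 24 under median-ratio scaling, 23 over described models, 24 with the replicate block over described models, and 28 to 44 with 1 library left out. The replicate block alone gave 41 against 40. Same-numbered libraries of these groups deviated with a correlation of −0.08 over 2 pairs, too few to tell whether they share more than a number. In that comparison Glyma.08G109000 turned from −1.17 to 0.47 (median ratio) and 0.60 (described models, with or without the block), Glyma.10G241600 from −0.90 to 0.79 and 0.92, and Glyma.20G152600 from −1.84 to 0.039 and 0.19. These directions depend on the undescribed alignments of the coat libraries. Over the 74 results for named genes, no other sign changed in a called value. Single libraries per line and weight limit the line comparisons.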

Other observations

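Of the subtilisin-type proteases described by other names, 5 of 8 tested were higher in late coats and 1 lower, with a median of 0.61. Over all genes tested in that comparison, 26.6% were higher and 31.1% lower, with a median of −0.03. The tripeptidyl peptidase II gene Glyma.16G182500 averaged 16.9 RPKM in coats of 10 to 100 mg and 34.8 RPKM in coats of 300 to 500 mg. The xylem serine peptidase Glyma.09G266000 was at 3.03 to 9.03 RPKM in the hilum and 0.0239 to 0.165 RPKM in coat without hilum, and averaged 6.24 RPKM in young roots. Both were named after their values were seen.

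Roots of flooded 5 day W43 seedlings and young roots of 4 week plants differ in age, line and treatment, so their values are set side by side with no test. The SDD1-like Glyma.05G051500 was at 0.0039 and 0.00852 RPKM after 12 and 24 h of flooding and at 12.6 and 31.8 RPKM in young roots. Glyma.04G022300, closest to SBT5.2, was the highest subtilase of the flooded roots, at 18.6 and 37.2 RPKM, followed by the ARA12-like Glyma.04G044600 at 16.2 and 14.0 RPKM, near its 21.2 and 16.6 RPKM in young roots.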
